A study of Mus musculus with 2 samples.

Results

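Ephrins, semaphorins, Slits and netrins are the main families of guidance cues, proteins that attract or repel migrating cells and growing axons, and they act through Eph, plexin, neuropilin, Robo, Dcc and Unc5 receptors. The genes described here were all those whose name on the array belongs to one of these ligand or receptor families, 69 genes on 101 probes out of 34638 gene names, of which 2711 are only a probe identifier. RNA was compared between EpiSC (epiblast stem cells) obtained by treating E14Tg2A mouse embryonic stem (ES) cells directly with FGF2 (12 ng/mL) and Activin A (20 ng/mL), and ELA-EpiSC, for which the same factors were given to cells of Epiblast-Like Aggregates (ELA) grown from that line. E14Tg2A is a single ES line of 129/Ola strain, kept in serum and LIF before the treatment, and both treatments used a defined medium with N2 and B27. Each group was 1 array, hybridized with total RNA pooled from 3 experiments, so no difference had a replicate and no test was possible. The sample titles gave the groups. The source fields of both samples conflict with their titles, since both name E14Tg2A at 0DIV (the start of differentiation), with an Argonaute immunoprecipitate for EpiSC and total RNA for ELA-EpiSC, and every difference below rests on the titles.

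Eph receptors are receptor tyrosine kinases, and their ephrin ligands are themselves bound to the cell surface, by a lipid anchor in the A class and by a membrane-spanning segment in the B class, so that signals pass both ways between touching cells. Class 3 semaphorins are secreted and signal through complexes of a neuropilin, which binds the ligand, and a plexin, which signals, whereas most semaphorins of classes 4 to 7 are membrane proteins that bind plexins directly. Slits are secreted ligands of Robo receptors, and netrins are secreted, laminin-related ligands of Dcc and the Unc5 receptors. In the early embryo, where EpiSC have their counterpart in the post-implantation epiblast, several of these genes are known for roles in cell sorting, tissue boundaries and migration before any axon forms.

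Values below are log2 normalized intensity, 1 value for each array, and each difference is ELA-EpiSC minus EpiSC, so that 1 stands for a doubling. A gene was read from its brightest probe. It was counted as past 1 where the difference was at least 1 in either direction and the mean of both arrays was at least 7.5. The only measure of error was the spread of replicate spots within the arrays, which gave a difference an SD of 0.10 over 313 probes; it covers neither labelling nor culture. In cultures measured as a bulk, fewer cells of a type and less RNA per cell cannot be told apart.

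The promoters of genes with large differences are shown first, 2 that were higher in ELA-EpiSC (Epha2 and Sema7a) and 2 that were lower (Sema5b and Ephb1). Each is the 250 bases before the transcription start, read 5′ to 3′ on the strand of the gene, from RefSeq on build GRCm38.p6. Epha2 lies at chr4:141300971-141301220 on the plus strand, Sema7a at chr9:57939862-57940111 on the plus strand, Sema5b at chr16:35541112-35541361 on the plus strand and Ephb1 at chr9:102354694-102354943 on the minus strand. Capitals mark matches on either strand to 5 searched motifs, the GC box (GGGCGG), the TATA box (TATAAA), the LEF/TCF motif (CTTTGAT), the AP-1 motif (TGANTCA) and the CCAAT box (CCAAT), none of which overlapped here.
Epha2: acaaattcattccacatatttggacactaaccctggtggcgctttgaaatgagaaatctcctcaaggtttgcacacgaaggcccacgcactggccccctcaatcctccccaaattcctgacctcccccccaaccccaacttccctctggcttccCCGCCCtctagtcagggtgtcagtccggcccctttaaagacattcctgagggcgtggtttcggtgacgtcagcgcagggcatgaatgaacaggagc
Sema7a: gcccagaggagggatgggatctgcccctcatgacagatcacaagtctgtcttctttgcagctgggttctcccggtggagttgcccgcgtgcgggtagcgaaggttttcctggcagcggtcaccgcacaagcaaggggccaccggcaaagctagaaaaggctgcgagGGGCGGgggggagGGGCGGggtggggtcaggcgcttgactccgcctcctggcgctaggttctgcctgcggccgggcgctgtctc
Sema5b: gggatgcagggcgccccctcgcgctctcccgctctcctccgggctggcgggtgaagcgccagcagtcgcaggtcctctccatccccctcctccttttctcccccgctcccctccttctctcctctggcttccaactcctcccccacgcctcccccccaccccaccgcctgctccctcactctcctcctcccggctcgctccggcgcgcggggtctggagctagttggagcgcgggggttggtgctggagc
Ephb1: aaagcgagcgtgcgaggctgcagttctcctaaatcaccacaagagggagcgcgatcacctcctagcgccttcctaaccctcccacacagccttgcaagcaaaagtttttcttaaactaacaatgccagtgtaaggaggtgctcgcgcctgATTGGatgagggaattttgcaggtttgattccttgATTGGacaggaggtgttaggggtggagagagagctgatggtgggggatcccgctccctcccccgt
The Epha2 promoter held 1 GC box that begins 96 bases before the start, and that of Sema7a held 2, at 84 and 71 bases. In the Ephb1 promoter 2 CCAAT boxes stood at 100 and 65 bases before the start, and the Sema5b stretch held none of the 5 motifs although its GC content was 72.0%. Promoters running from 250 bases before to 50 after the start were found for 59 of the 69 genes, at 75 starts, and for 15 of the 18 genes past 1. A GC box was present at 8 of 8 starts of genes past 1 and higher, at 5 of 8 starts of genes past 1 and lower, at 70.7% of the starts of all guidance genes and at 35.7% of 32851 starts of all genes. The TATA box was rare, at 2.67% of guidance starts against 13.6% of all starts, and the CCAAT box stood at 28.0% against 37.4%. AP-1 and LEF/TCF matches were found at 4% and 1.33% of guidance starts, against 7.81% and 3.73% of all. Median GC content was 64.3% for guidance promoters and 52.7% for all promoters. These matches describe letters in the windows only.

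Markers of the labelled cell type were present on both arrays. All 8 primed pluripotency markers, among them Pou5f1, Fgf5 and Otx2, were well above background in both, and 1 of them, Pou3f1, was past 1 (higher by 1.46). Detection alone did not set these markers apart. Of 8 naive markers, 8 and 7 were well above background in EpiSC and ELA-EpiSC, and of 9 endoderm markers 9 and 7. All 7 primitive streak and all 5 trophoblast markers were so on both arrays. Other marker lists differed between the arrays. Of 7 endoderm markers at the minimum level, 4 were past 1 and lower in ELA-EpiSC (list median -2.39, summed raw signal 55977 in EpiSC and 34336 in ELA-EpiSC), of 7 naive pluripotency markers 3 were lower, and of 7 neural markers 2 were lower (Rax by -5.97 and Hesx1 by -4.38) and 1 was higher (Nes by 2.10), with Pax6 detected on neither array. Of 7 primitive streak markers, 2 were higher (T and Mixl1) and 1 was lower (Mesp1), with a median of -0.26. Their summed raw signal, which is not normalized, was 16203 in EpiSC and 31147 in ELA-EpiSC. Of 4 fibroblast and 4 trophoblast markers at the minimum, 1 fibroblast marker was higher (Col1a1 by 3.72), and 1 trophoblast marker was higher and 1 lower. No endothelial marker reached the minimum, and Emcn was detected on neither array. Of the markers past 1, Ttr, Amn, Nr0b1, Rax, Mesp1 and Elf5 lay under 7.5 in ELA-EpiSC. They reached the minimum mean only through the EpiSC array. Mixl1 and Col1a1 lay under 7.5 in EpiSC and reached it only through the ELA-EpiSC array. The part of the listed cell types in the results below was not tested.

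A pair of probes did not lie where their gene does. The bright probe named Dcc, at 15.61 in EpiSC and 15.12 in ELA-EpiSC, is placed by the array design at chr7:68417162-68417221 (mm9), while Dcc is a gene of chromosome 18, and its 60 bases hold 17 consecutive GAA triplets. Another 27 probes of the array hold at least 10 such triplets in a row; all 27 were well above background on both arrays, all were lower in ELA-EpiSC (-0.84 to -0.19, median -0.46), and the Dcc probe lay among them at -0.49. No probe of any other guidance gene held more than 2 such triplets in a row. The other Dcc probes, which lie on chromosome 18, were at background in both samples, so the array gave no measurement of Dcc from its own locus above background. The second probe of Plxna2 is placed on chromosome 13 and the gene on chromosome 1. Without these probes the counts of genes past 1 stayed at 9 higher and 9 lower, and 52 genes in place of 53 reached the minimum level.

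Most guidance genes were measured in both kinds of EpiSC, and among those past 1 as many were higher as lower in ELA-EpiSC. Of the 69 genes, 60 were well above background on both arrays, 4 on 1 array and 5 on neither (Epha6, Ntn5, Sema3d, Unc5c and Unc5d), which makes 64 (92.8%) on at least 1 array against 74.6% of all gene names. The 64 include Dcc through its repeat probe, and 63 genes had a detected probe on their own chromosome. At the minimum level stood 53 genes, and 11 detected ones lay under it. Past 1 and higher in ELA-EpiSC were 9 of the 53 (17.0%), against a background of 4.56% of 16653 genes, and past 1 and lower were another 9 (17.0%), against 4.47%. In either direction that was 18 genes (34.0%) against 9.03%. The median difference was near 0 in both sets (-0.05 for guidance genes and 0.00 for all genes), with 25 guidance genes above 0 and 28 below, while the median size of the difference was 0.54 for guidance genes and 0.28 for all genes. By level of signal, 4 of 9 guidance genes (44.4%) were past 1 between a mean of 7.5 and 9, against 12.4% of all genes there. Between 9 and 11 it was 6 of 25 (24.0%) against 11.1%, and at 11 and over 8 of 19 (42.1%) against 6.21%. The 4 genes of the lowest range (Ephb1, Nrp1, Plxna4 and Sema5b) each lay under 7.5 in ELA-EpiSC. They reached the minimum mean only through the EpiSC array, where they were high. Scaling moved the balance of directions. With the spike-in probes set equal, 14 guidance genes were past 1 and higher and 7 lower, beside 2497 and 304 of all genes, and with arrays scaled to their median, all genes split into 1107 higher and 523 lower.

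**Figure D1:**
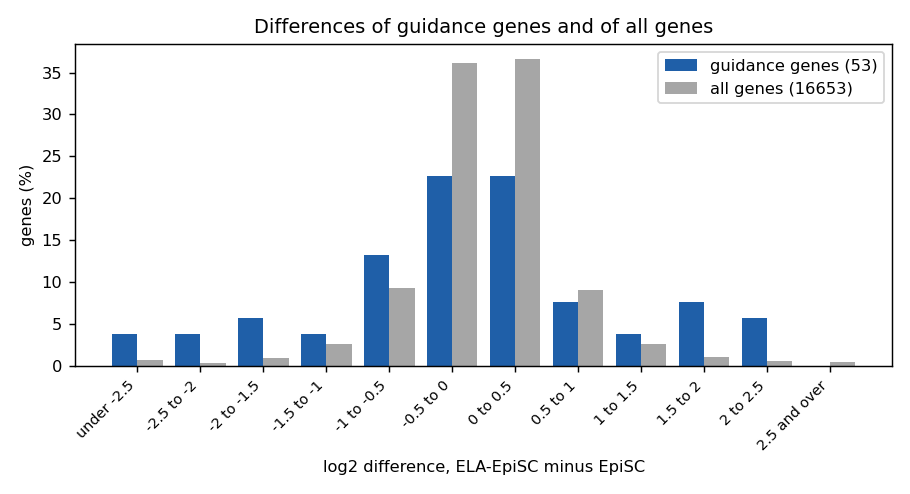
Share of genes (%, vertical axis) in each range of log2 difference, ELA-EpiSC minus EpiSC (horizontal axis), for 53 guidance genes (blue) and 16653 genes of the array (grey) with a mean log2 of at least 7.5. Guidance genes made up 9 genes past 1 on each side; the range of 2.5 and over held 0 of them and 66 of all genes, and the range under -2.5 held 2 of them and 108 of all genes.

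By role, ligands held more genes past 1 on the higher side and receptors more on the lower side. Of 28 ligand genes at the minimum level, 6 were past 1 and higher in ELA-EpiSC and 3 were lower, with a median of 0.16. Of 25 receptor genes, with Dcc counted through its repeat probe, 3 were higher and 6 were lower, with a median of -0.18. Over all genes, 4.56% were past 1 and higher and 4.47% past 1 and lower. The lower receptors Ephb1, Nrp1 and Plxna4 and the lower ligand Sema5b lay under 7.5 in ELA-EpiSC. They reached the minimum mean only through the EpiSC array, so the lower counts depend on that filter. The counts by role are small and the groups of genes were not compared by a test. The 9 genes past 1 and higher were Epha1, Epha2, Efnb2, Sema3c, Sema3e, Sema6a, Sema7a, Nrp2 and Slit3, and the 9 past 1 and lower were Ephb1, Efna1, Sema5b, Nrp1, Plxna2, Plxna4, Robo1, Robo3 and Slit1. All 18 kept their direction under each of 12 alternative ways to compute the values. They were chosen for a difference of at least 1. A smaller shift common to all genes, as with the spike-in probes set equal, could not reverse that.

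**Figure D2:**
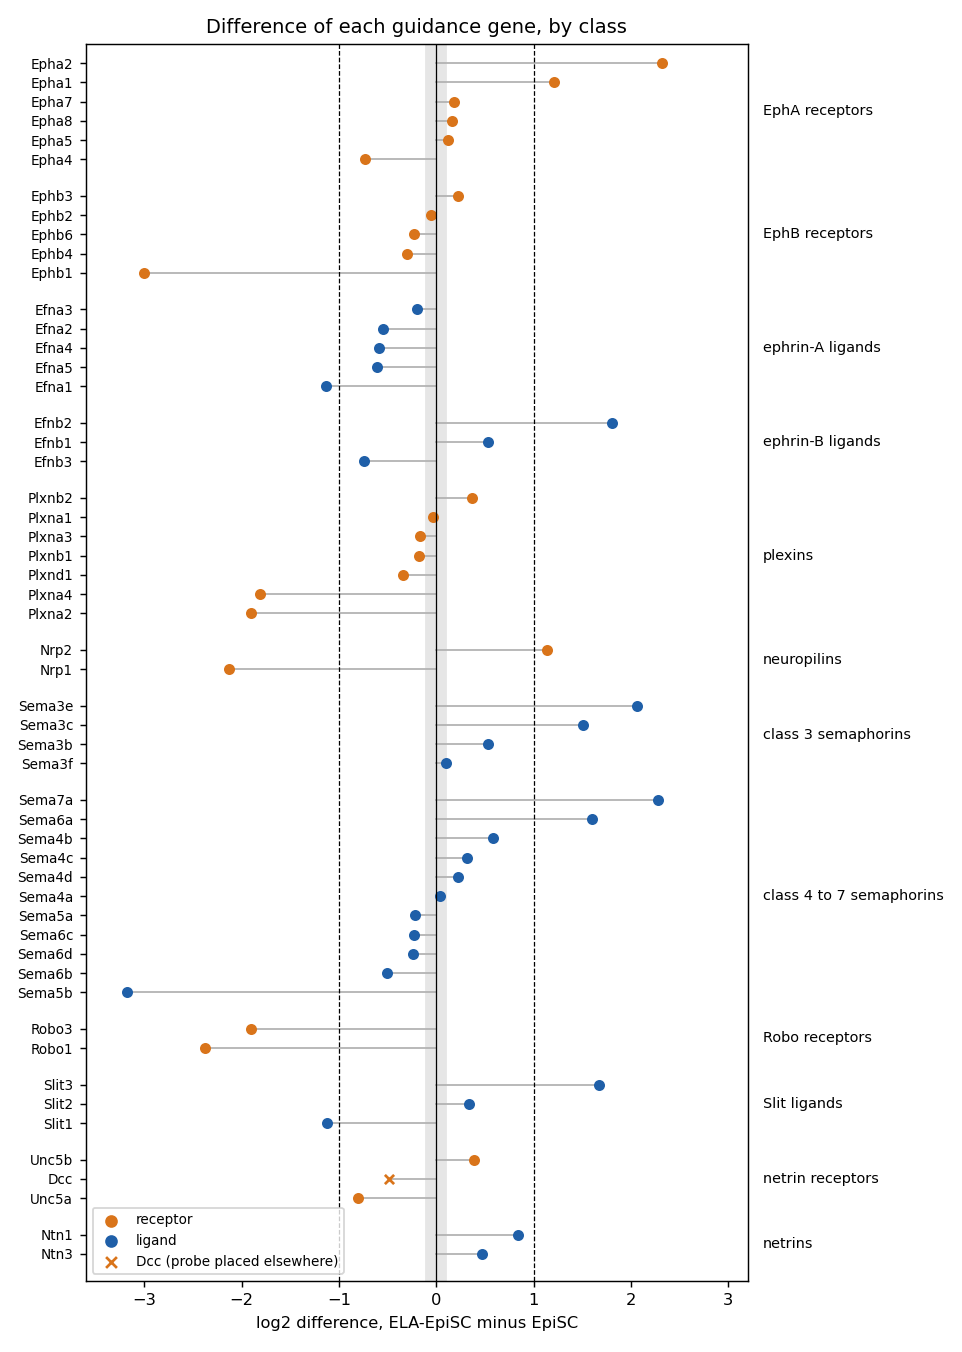
Log2 difference, ELA-EpiSC minus EpiSC (horizontal axis), of the 53 guidance genes at the minimum level, grouped by class, with ligands in blue and receptors in orange. The grey band is 1 SD of replicate spots (0.10) on either side of 0, dashed lines stand at -1 and 1, and the cross marks the Dcc probe; the long bars run to the left for Sema5b and Ephb1 and to the right for Epha2 and Sema7a.

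Among EphA receptors, 2 of 6 measured genes were past 1, both higher in ELA-EpiSC. Epha2, an Eph receptor known from epithelial cells and from embryonic stem cells, stood at 12.89 on the EpiSC array and at 15.21 on the ELA-EpiSC array, which gave a difference of 2.32 or 4.99-fold. Epha1, another receptor known from epithelia, stood at 13.13 and 14.34, a difference of 1.2 or 2.30-fold. The ELA-EpiSC array was the higher one for both. The remaining EphA receptors, which are best known from axon mapping in the nervous system, differed by less. Epha4 was at 9.65 and 8.92 (-0.73), and Epha5, Epha7 and Epha8 differed by 0.12, 0.18 and 0.16. Epha5 turned negative when the arrays were scaled to their 75th percentile, and a dimmer Epha7 probe gave -0.25. Epha10 was under the minimum level, and Epha3 was well above background on the ELA-EpiSC array only, with a difference of 0.13 near background.

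EphB receptors did not share that direction. Ephb1, a receptor of neural and vascular tissue, had the largest difference of its class, with 10.05 in EpiSC and 7.04 in ELA-EpiSC, or 8.01-fold lower (-3.00). Its raw signal was 912 intensity units over a local background of 23 on the EpiSC array and 99.2 over 19 on the ELA-EpiSC array. Ephb2, Ephb3, Ephb4 and Ephb6, the last of which lacks kinase activity, differed by -0.05, 0.22, -0.30 and -0.22. Those 3 small negative differences turned positive when the spike-in probes were set equal, and that of Ephb3 turned negative when arrays were scaled to their 75th percentile. Ephb1 was thus the 1 EphB receptor of 5 past 1.

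The A ephrins, ligands of EphA receptors, were all lower in ELA-EpiSC, 5 of 5 with a median of -0.59, but this depended on scaling. Efna3 turned positive when arrays were scaled to their median or to the spike-in probes. With the spike-in probes set equal, Efna2, Efna4 and Efna5 differed by only -0.01, -0.05 and -0.07, within the spot SD of 0.10. Efna1 was past 1, at 10.78 in EpiSC and 9.66 in ELA-EpiSC (-1.13, or 2.19-fold lower). Efna2, Efna4 and Efna5 differed by -0.55, -0.59 and -0.61, and Efna3, with the smallest difference of the class, was at 9.15 and 8.95 (-0.20). B ephrins, the ligands of EphB receptors, were mixed. Efnb2, known for its role in arterial vessels, stood at 11.01 and 12.82, a difference of 1.81 or 3.50-fold. Its second, dim probe gave only 0.14. Efnb1 was higher by 0.53 and Efnb3 lower by -0.74.

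**Figure D3:**
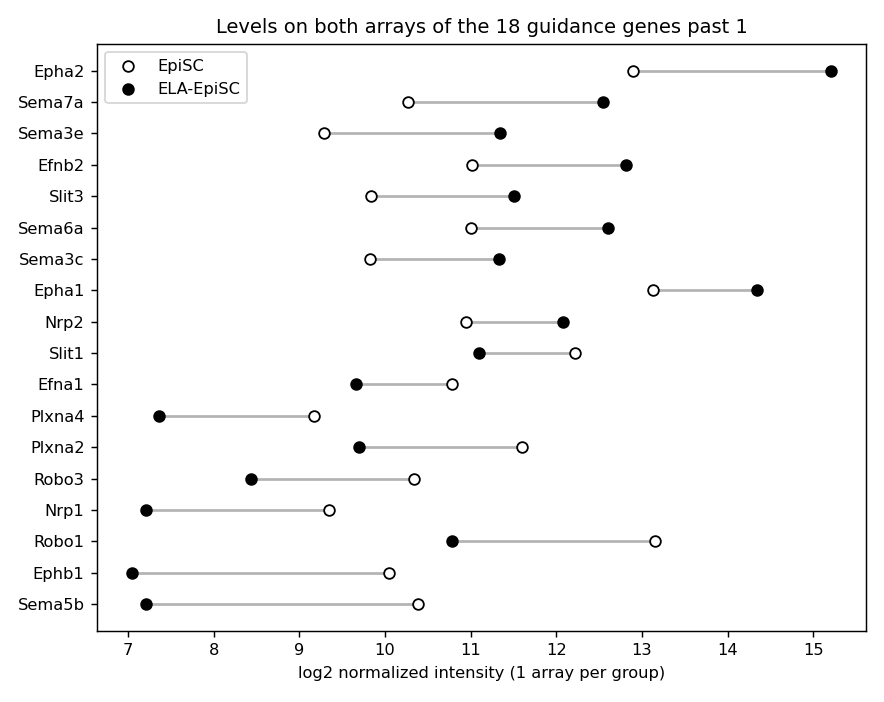
Log2 normalized intensity (horizontal axis) of the 18 guidance genes past 1 on the EpiSC array (open points) and the ELA-EpiSC array (filled points), 1 array per group, ordered by the difference. The upper 9 genes were higher in ELA-EpiSC and the lower 9 in EpiSC; levels of different genes come from different probes and have no order among themselves.

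All 4 class 3 semaphorins at the minimum level were higher in ELA-EpiSC under every scaling, with a median of 1.02. Sema3e, a ligand that binds plexin D1 without a neuropilin, was at 9.28 in EpiSC against 11.35 in ELA-EpiSC, a difference of 2.06 or 4.18-fold. Sema3c, known for its role in outflow tract and neural crest development, was at 9.82 and 11.33, a difference of 1.51, and its second probe gave 0.83. The ELA-EpiSC array was the higher one for both. Sema3b and Sema3f differed by 0.54 and 0.10. The difference of Sema3f was about the size of the spot SD of 0.10, and it fell to 0.02 among the alternatives. Sema3a, the founding collapsin, and Sema3g were measured under the minimum level, with differences of -0.48 and 0.26, and for Sema3a the 2 probes had opposite signs. A second Sema3g probe was well above background on the EpiSC array only, so that its direction was also opposite to that of the first.

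Semaphorins of classes 4 to 7 held 3 genes past 1 among 11 at the minimum level, 2 of them higher and 1 lower. Sema5b, a membrane semaphorin with thrombospondin repeats, was at 10.39 in EpiSC and 7.21 in ELA-EpiSC, or 9.07-fold lower (-3.18), and its other probes gave -2.51 and -1.32. Sema7a, which is anchored to the membrane by a lipid and is known to signal through integrins, went the other way, from 10.27 to 12.54, a difference of 2.28 or 4.85-fold. Sema6a, a membrane semaphorin that binds the products of Plxna2 and Plxna4, was at 11 and 12.60, a difference of 1.60, with 1.22 on its second probe. The other 8 genes of these classes at the minimum level lay between -0.50 (Sema6b) and 0.59 (Sema4b). Sema4a had the smallest difference, at 9.29 and 9.33 (0.04). For Sema6c the next probe, nearly as bright, gave -0.88 against -0.22 for the brightest. Sema4g was under the minimum level, and Sema4f was well above background on the ELA-EpiSC array only, with a difference of 0.20 near background.

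Semaphorin receptors were lower or close to equal with a pair of exceptions. Plxna2, a signalling receptor for class 3 and class 6 semaphorins, was at 11.59 in EpiSC and 9.70 in ELA-EpiSC, or 3.73-fold lower (-1.90). Plxna4, a plexin of the same group, was at 9.17 and 7.36, or 3.50-fold lower (-1.81). Of the 7 plexins at the minimum level, 6 were below 0 with a median of -0.18, but 4 of these 6 (Plxna1, Plxna3, Plxnb1 and Plxnd1) turned positive with the spike-in probes set equal. Plxna1 had the smallest difference, at 9.52 and 9.49 (-0.03), and Plxnb2 was higher by 0.37. Plxnd1, the receptor of Sema3e, was at 11.10 and 10.76 (-0.34). The neuropilins, co-receptors that bind class 3 semaphorins and vascular endothelial growth factor, were split. Nrp1 was at 9.34 in EpiSC and 7.21 in ELA-EpiSC, or 4.39-fold lower (-2.13). Nrp2 was at 10.95 and 12.08, a difference of 1.13 or 2.19-fold, with 0.90 on its second probe. Plxnb3 and Plxnc1 were under the minimum level.

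The Slit and Robo genes held 4 genes past 1 among the 5 at the minimum level. Robo1, a Slit receptor of the immunoglobulin family, was at 13.15 in EpiSC and 10.78 in ELA-EpiSC, or 5.18-fold lower (-2.37). A dim second probe of the gene was well above background in EpiSC only. Robo3, a divergent Robo known from midline crossing, was at 10.33 and 8.43, or 3.75-fold lower (-1.91), with -0.58 on its dim second probe. Both receptors were lower on the ELA-EpiSC array under every scaling. Robo2 was well above background on the ELA-EpiSC array only, by at least 1.36-fold on its brightest of 3 probes. Robo4, the Robo of endothelium, was under the minimum level (6.39 and 6.95). The Slit ligands went in both directions. Slit3 measured 9.83 in EpiSC against 11.50 in ELA-EpiSC, a difference of 1.67 or 3.18-fold, and Slit1 was at 12.22 and 11.09, or 2.18-fold lower (-1.12). Slit2 differed by 0.33.

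No netrin or netrin receptor was past 1, though Dcc was not measured above background from its own locus. Ntn1, the best studied netrin, was at 9.88 in EpiSC and 10.72 in ELA-EpiSC (0.84), and its dim second probe gave 0.26. Ntn3 was at 7.95 and 8.42 (0.47). Ntn4 was well above background on the EpiSC array only, with a difference of -0.19 near background. Of the Unc5 receptors, which convert netrin attraction into repulsion, Unc5a was at 8.98 and 8.18 (-0.81) and Unc5b at 14.32 and 14.71 (0.39).

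**Figure D4:**
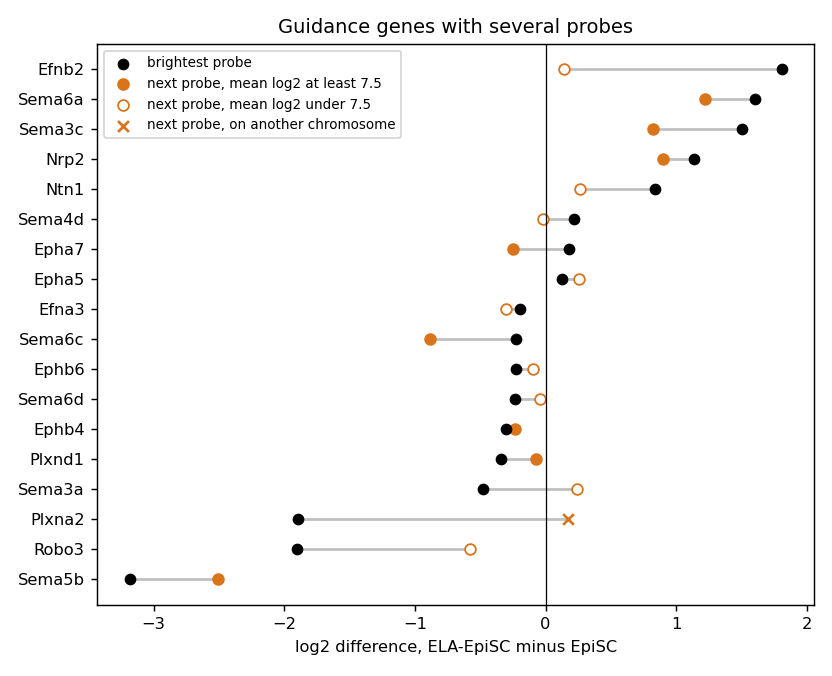
Log2 difference, ELA-EpiSC minus EpiSC (horizontal axis), for the 18 guidance genes with at least 2 probes well above background on both arrays, with the brightest probe in black and the next brightest in orange (filled at a mean log2 of at least 7.5, open below it, a cross for the Plxna2 probe on another chromosome). Both probes had the same sign in 14 of 18 genes, and the next probe mostly lay nearer to 0.

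Agreement between probes was checked where a gene had more than 1. In 18 genes at least 2 probes were well above background on both arrays, and in 14 of them the 2 brightest gave the same sign. Of 7 such genes whose brightest probe was past 1, the next probe had the same sign in 6, Plxna2 with its probe on chromosome 13 being the exception, and was itself past 1 in 2 (Sema5b and Sema6a). In 9 of the 18 genes the next probe lay under the minimum level. The remaining 11 genes past 1 rested on 1 probe well above background on both arrays.

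Genes that act with these cues inside the cell or beside their receptors were read from a list of their own. From a list of 71 further guidance pathway genes, 55 reached the minimum level, of which 3 (5.45%) were past 1 and higher, against 4.56% of all genes, and 5 (9.09%) were past 1 and lower, against 4.47%, with a median of 0.06. The share on the higher side was close to that of all genes. Higher were Nrcam, an adhesion molecule that joins neuropilin complexes (11.49 and 13.13, 1.64), Crmp1, a mediator of semaphorin signals (11.05 and 12.20, 1.15), and Rnd1, a small GTPase that binds plexins (8.73 and 9.79, 1.05). Lower were Dpysl3, a relative of Crmp1 (14.42 and 12.52, -1.90), and Srgap1, a GTPase-activating protein that binds Robo1 (12.81 and 10.93, -1.88). Flrt3, an Unc5 and Robo1 binding protein (13.13 and 11.66, -1.48), Dscam, a netrin receptor (8.45 and 6.98, -1.47), and Kalrn, which acts downstream of EphB receptors (10.29 and 9.1, -1.20), were lower as well. Dscam lay under 7.5 in ELA-EpiSC and reached the minimum mean only through the EpiSC array.

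**Figure D5:**
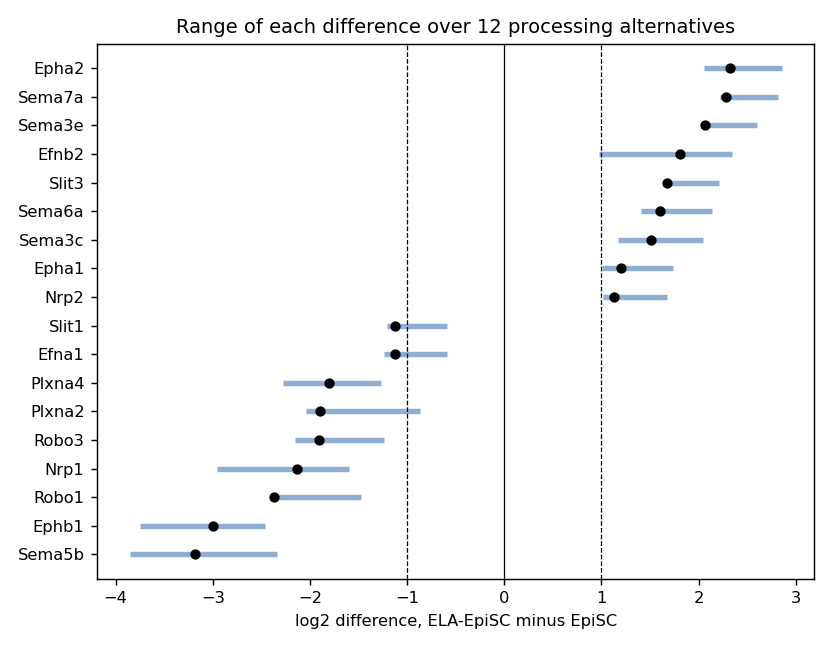
Log2 difference, ELA-EpiSC minus EpiSC (horizontal axis), of the 18 guidance genes past 1, with the value reported in the text (black point) and its range over 12 alternative ways to compute it (blue bar). No bar crosses 0, and for genes chosen as past 1 a smaller shift common to all genes could not make it do so. The bars of Slit1, Efna1, Plxna2 and Efnb2 cross the dashed lines at -1 or 1.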

How the data were processed

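Total RNA of EpiSC and ELA-EpiSC was measured on 1 Agilent one-colour mouse array each. Spot intensity, linear and not normalized, comes from scanner files that the authors made and deposited with Feature Extraction (version 9.1 per the labels, 10.7.3.1 per the file headers). A second deposited table, of log2 probe values that the authors normalized with limma, served as an alternative.

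Mean spot signal was background-corrected by normexp (offset 50) with limma 3.58.1 in R 4.3.3. Control spots and outlier spots (158 and 117) were left out, arrays were quantile normalized, values taken as log2 and spots of a probe averaged. Quantile normalization hides any shift shared by all genes, and the offset compresses differences of dim genes. A probe was well above background where at least 0.5 of its spots had that flag. A gene seen on 1 array only was set against the higher of its own dim value and the lowest detected signal there (5.89 in EpiSC and 6.11 in ELA-EpiSC, log2). Such a bound takes no account of spot noise. The script was tested on simulated data.

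Genes, classes, marker and pathway lists, motifs and thresholds were chosen with earlier results of these data known. Named were all guidance genes past 1, those detected on 1 array only, the largest and smallest difference of each class, and pathway genes past 1. Probe coordinates are those of mm9. All 64 detected genes matched RefSeq (GRCm38.p6) by accession under the same symbol. Tables were made with pandas 2.3.3 in Python 3.11.15.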

Additional observations from a re-analysis of the deposited data

How the results depend on the processing

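With 1 array per group, leaving out a replicate could not be tried, and with single arrays there were no pairs to block on. The median difference of the guidance genes was -0.05 and moved to 0.11 with arrays scaled to their median, to -0.18 with the processed signal scaled to the 75th percentile, to 0.49 with the spike-in probes set equal and to 0.071 with a minimum mean log2 of 9. The same scalings moved the median of all genes from 0.00 to 0.15, -0.08 and 0.54. All 8 detected spike-in probes were lower in ELA-EpiSC, by a mean of -0.54. Of the counts past 1, the higher one moved from 9 to 14 with the spike-in probes set equal, and the lower one from 9 to 5 with a minimum of 9. At 1.5-fold 11 genes were higher and 14 lower, against 1841 and 1826 of all genes, and at a threshold of 2.5 on the log2 scale 0 were higher and 2 lower, against 66 and 108 of all genes; these counts follow from the thresholds. Setting the spike-in probes equal adds 1 constant to every ELA-EpiSC value, which moves every median by that constant. For the other moved medians the cause was not tested. Epha2 had the largest positive difference, but Sema7a exceeded it in 4 of 14 alternatives (both scalings to the 75th percentile, the median and cyclic loess), and Sema5b had the largest negative one, but Ephb1 exceeded it with the mean of all probes. All 18 genes past 1 kept their direction under the 12 alternatives that recompute each gene. For genes chosen as past 1, a smaller shift common to all genes could not have changed it. Efna1 and Slit1 were past 1 in 10 of the 12, Efnb2 and Plxna2 in 11, and the other 14 in all 12. Leaving out probes placed on another chromosome, an alternative chosen after seeing the data, gave a median of -0.04 and 9 genes past 1 in each direction.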

Other observations

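Some guidance genes lie close to another on the chromosome, and their differences were read side by side (distances between probe starts, mm9). On chromosome 3, Efna1, Efna3 and Efna4 lie within 62477 bases and differed by -1.13, -0.20 and -0.59. On chromosome 9 the probes of Robo3 and Robo4 are 2810 bases apart and gave -1.91 and 0.56, Robo4 at a level under the minimum. On chromosome 16 the probes of Robo1 and Robo2 are 848463 bases apart, and Robo1 gave -2.37 while Robo2 was well above background on the ELA-EpiSC array only, by at least 1.36-fold. On chromosome 5 Sema3a and Sema3e, 654136 bases apart, gave -0.48 and 2.06, Sema3a at a level under the minimum. On chromosome 6 Epha1 and Ephb6, 738141 bases apart, gave 1.20 and -0.22.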
